A study of Schizosaccharomyces pombe with 6 samples.

Results

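The genes at both ends of chromosome I of fission yeast (Schizosaccharomyces pombe) are described here by their RNA levels. They were chosen by a rule on gene names, set with earlier results of these data known. A row of the deposited table was taken as a member when its identifier began with the name of 1 of 10 genomic clones, from which fission yeast genes take their systematic names. The clones SPAC212, SPAC977, SPAC1F8, SPAC11D3 and SPAC5H10 cover the SPAC212 end of the chromosome, and SPAC750, SPAC186, SPAC869, SPAC922 and SPAC1039 cover the SPAC186 end, each list running inward. The rule took 103 of the 6345 genes in the table, with 61 members at the SPAC212 end and 42 at the SPAC186 end. All 103 carry protein-coding identifiers, and 5059 genes of the table do so.

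The study examined Mkt1, a protein it placed in RNA interference and heterochromatin formation. Total RNA was taken from exponentially growing cells in YES, a rich medium, at 32°C, and stranded mRNA libraries were made from 3 samples of each of 2 strains. The wild-type strain, EHB7, was of mating type h+ and carried the marker alleles ade6-210, leu1-32 and also ura4-D18, together with the insertion otr1R(Sph1):ade6+. The mkt1Δ strain, EHB2196, carried the same alleles with mkt1Δ::NatR added, so both strains had the ade6+ reporter in the pericentromeric repeats and the same nutritional markers. Each genotype was 1 strain, and the study describes its samples as biological replicates.

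The level used throughout is the authors' mean over all 6 libraries, in log2 CPM. CPM is a gene's read count scaled to the total of its library, and a step of 1 on the log2 scale is a doubling. It averages both strains and is therefore neither a wild-type level nor a mkt1Δ level. Neither the values of each library nor the difference between the strains was analysed here. Library depth is therefore unknown, the mean has no error beside it, and no test was made. The lowest mean among all protein-coding genes of the table was -2.47 log2 CPM, and values close to it rest on very few reads. Where genes are compared with each other, the level was also divided by the coding length in kilobases (log2 CPM per kb).

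The regions next to the telomeres, the subtelomeres, are packaged in fission yeast into heterochromatin marked by methylation of histone H3 on lysine 9, which the methyltransferase Clr4 deposits and the protein Swi6 binds. Subtelomeric sequence is duplicated among chromosome ends, and the outermost genes belong to families with copies at several ends, such as the tlh telomere-linked helicases. Further in lie genes for nutrient uptake, metal uptake, cell surface proteins and fermentation, many of which fission yeast uses only under particular growth conditions.

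As a group the members were expressed at a low level, with a wide spread. Their median was 4.96 log2 CPM (quartiles 2.04 and 6.61, range -2.38 to 11.98, n = 103), against 6.20 log2 CPM for the other protein-coding genes (quartiles 5.25 and 7.26, n = 4956). Divided by coding length, the medians were 4.98 log2 CPM per kb over 102 members and 5.94 log2 CPM per kb over 4944 others. The lower quartile lay further from that of the other genes than the median did. A limit of 2 log2 CPM (4 CPM) had 25 members below it (24.3%) and 180 other genes (3.63%). Below 0 log2 CPM there were 15 members and 75 other genes. At the upper side, 32 members lay above the median of the other genes, and 7 were in the top decile of all 5059 protein-coding genes.

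The highest level belonged to pdc101 (SPAC1F8.07c), which encodes pyruvate decarboxylase, the enzyme that makes acetaldehyde from pyruvate in alcoholic fermentation, at 11.98 log2 CPM. It was followed by yhb1 (SPAC869.02c), a nitric oxide dioxygenase that removes nitric oxide, at 10.98 log2 CPM, and by the aldo/keto reductase SPAC977.14c at 10.61. SPAC5H10.03, of the phosphoglycerate mutase family, had 10.21 log2 CPM. The next were SPAC922.04, a protein specific to Schizosaccharomyces, at 9.75, and SPAC977.18, a conserved fungal protein, at 9.38 log2 CPM. The 10 highest were completed by adh4, an alcohol dehydrogenase, at 8.67 log2 CPM, the galactosyltransferase gene gmh2 at 8.41, the phosphatase SPAC1039.02 at 8.17 and the aldo/keto reductase SPAC750.01 at 8.12. Per kb of coding length the short gene SPAC922.04 (11.24 log2 CPM per kb) and pdc101 (11.21 log2 CPM per kb) stood level at the top. These genes lay on both ends and on 7 of the 10 clones.

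The lowest level belonged to str3 (SPAC1F8.03c), an iron-siderophore transporter, at -2.38 log2 CPM. Its neighbour shu1, a heme-binding protein of the cell surface that takes up heme, had -1.77 log2 CPM. Both belong to iron acquisition, which fission yeast switches on when iron is scarce. The hypothetical gene SPAC212.03 had -2.18 log2 CPM. At the SPAC186 end, the hydroxyacid dehydrogenase SPAC186.02c had -1.98 log2 CPM, the L-lactate dehydrogenase SPAC186.08c -1.91, the methyltransferase SPAC750.03c -1.59, the L-asparaginase SPAC186.03 -1.28 and the formamidase-like SPAC869.04 -1.19. The remaining low members were pfl6, a cell surface adhesin, at -1.66 log2 CPM and the methyltransferase SPAC977.03 at -1.42. All 10 lay below 0 log2 CPM, which is less than 1 CPM, and their order among themselves has no replicate check.

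**Figure D1:**
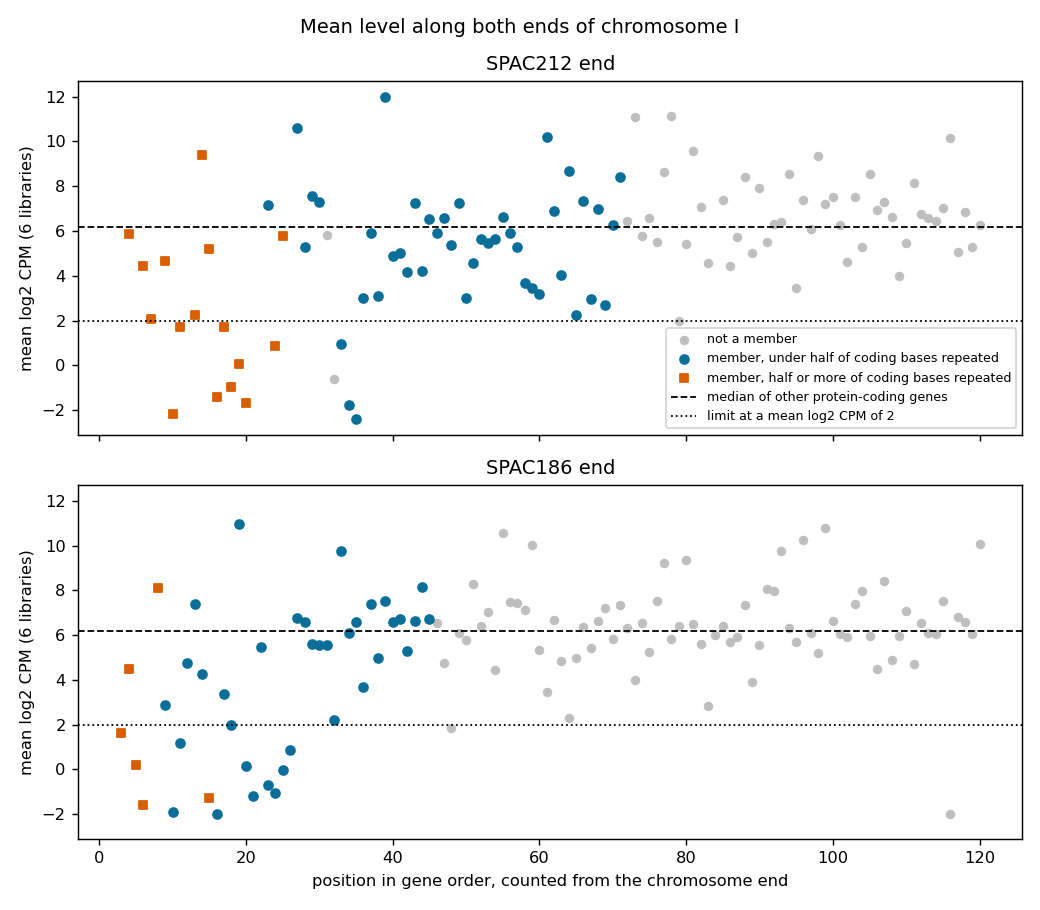
Mean level (log2 CPM, authors' mean of 6 libraries) of each protein-coding gene with a value, by its position in the ASM294v3 gene order counted from the chromosome end, at the SPAC212 end (top) and the SPAC186 end (bottom). Circles and squares are members with under or at least 50% of their coding bases repeated elsewhere in the genome, grey points are other genes, the dashed line is the median of the other genes (6.20) and the dotted line the limit of 2. Nearly all points below the dotted line lie among the members, and past the members the grey points gather around the dashed line.

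Position was counted as gene order from the chromosome end in the ASM294v3 annotation, because the authors used another build (ASM294v2) and coordinates would differ. The outermost member at the SPAC212 end was SPAC212.08c, a GPI-anchored cell surface protein, at 5.86 log2 CPM and position 4. At the SPAC186 end it was SPAC750.06c, of the DUF999 family specific to fission yeast, at 1.65 log2 CPM and position 3. In steps of 10 members from the end inward, the median levels at the SPAC212 end were 3.35, 3.51, 3.99, 5.65, 5.56 and 6.60 log2 CPM. At the SPAC186 end the same steps gave 2.26, 1.09, 5.55 and 6.57 log2 CPM, and the last 2 members gave 7.45. The lowest step was thus the outermost at the SPAC212 end but the step after it at the SPAC186 end. Across genes, level and position had a Spearman coefficient of 0.33 at the SPAC212 end (Pearson 0.34, n = 60) and 0.52 at the SPAC186 end (Pearson 0.49, n = 42). Per kb of coding length the Spearman coefficients were 0.26 and 0.48. These genes share the same libraries and sequence, so the coefficients are descriptions. Without members that had 50% or more of their coding bases repeated, the coefficient was 0.021 at the SPAC212 end (n = 44) and 0.55 at the SPAC186 end (n = 36). At the SPAC212 end the members left out were all 10 of the outermost step and 6 of the next. Repeats and position therefore cannot be told apart at that end.

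Past the clones the levels were close to those of the rest of the genome. The next 61 protein-coding genes at the SPAC212 end had a median of 6.44 log2 CPM, and the next 42 at the SPAC186 end had 6.34. Only 1 gene of each of these sets lay under 2 log2 CPM. The outermost 103 protein-coding genes of chromosome II, taken as 61 from one end and 42 from the other, had a median of 5.59 log2 CPM with 19 of them under 2 (18.4%). They therefore lay between the members and the other genes. Per kb of coding length their median was 5.13 log2 CPM per kb, nearer to the members (4.98) than to the other genes (5.94). The Wilson intervals of the shares under 2 were 17.0% to 33.4% for the members and 12.1% to 27.0% for chromosome II. These intervals cover counting error only and treat genes as independent. Neighbouring genes of the same libraries are not, so the intervals do not compare the regions.

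The medians of the clones lay further apart than those of the ends. The medians of the ends were 5.04 log2 CPM (SPAC212 end, 12 of 61 under 2) and 4.86 log2 CPM (SPAC186 end, 13 of 42 under 2), a difference of -0.17 that changed sign when clone SPAC11D3, SPAC186, SPAC750 or SPAC869 was left out. Per kb of coding length the ends had 5.06 and 4.98 log2 CPM per kb. No order of the ends can be read from these values.

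At the SPAC212 end, the 6 members of SPAC212 had a median of 3.26 log2 CPM, from SPAC212.03 at -2.18 to SPAC212.08c at 5.86. The 15 members of SPAC977 spanned the full range between pfl6 at -1.66 and SPAC977.14c at 10.61, with a median of 5.19 and 6 members under 2 log2 CPM. SPAC1F8 held both the lowest and the highest of all members, str3 and pdc101, which stand 4 positions apart. Its 8 members had a median of 3.05 log2 CPM. The 19 members of SPAC11D3 were the most even of this end by their quartiles, with a median of 5.47 log2 CPM and quartiles of 4.41 and 6.23. Its highest member was the acetyltransferase SPAC11D3.02c at 7.27 log2 CPM, and its lowest was SPAC11D3.20 at -0.40 log2 CPM, a gene described as dubious that was not matched in ASM294v3. In SPAC5H10 the 13 members had a median of 6.29 log2 CPM, from SPAC5H10.07, specific to fission yeast, at 2.27 up to SPAC5H10.03 at 10.21, and 0 members lay under 2.

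At the SPAC186 end, the 5 members of the outermost clone, SPAC750, had a median of 1.65 log2 CPM, from SPAC750.03c at -1.59 to SPAC750.01 at 8.12. The 9 members of SPAC186 had a median of 2.88 log2 CPM, and its highest member was gdt1, whose human homologue TMEM165 is tied to calcium transport, at 7.37. SPAC869 had the lowest median of the 10 clones, 0.88 log2 CPM over 11 members, with 6 of them under 2. It also held yhb1 at 10.98 log2 CPM and the amino acid transporter genes put4 (6.78) and cat1 (6.60). The 6 members of SPAC922 had a median of 5.59 log2 CPM, from the dubious gene SPAC922.09 at 2.22 to SPAC922.04 at 9.75. The 11 members of SPAC1039, the innermost clone, had the highest median of the 10 clones in log2 CPM, 6.63. They ran from mmf2, a predicted isoleucine biosynthesis gene, at 3.69 to SPAC1039.02 at 8.17. Per kb of coding length SPAC5H10 had the highest median, 6.13 log2 CPM per kb, against 5.96 for SPAC1039. The clones SPAC5H10, SPAC922 and SPAC1039, the innermost of their ends, had 0 members under 2 log2 CPM.

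**Figure D2:**
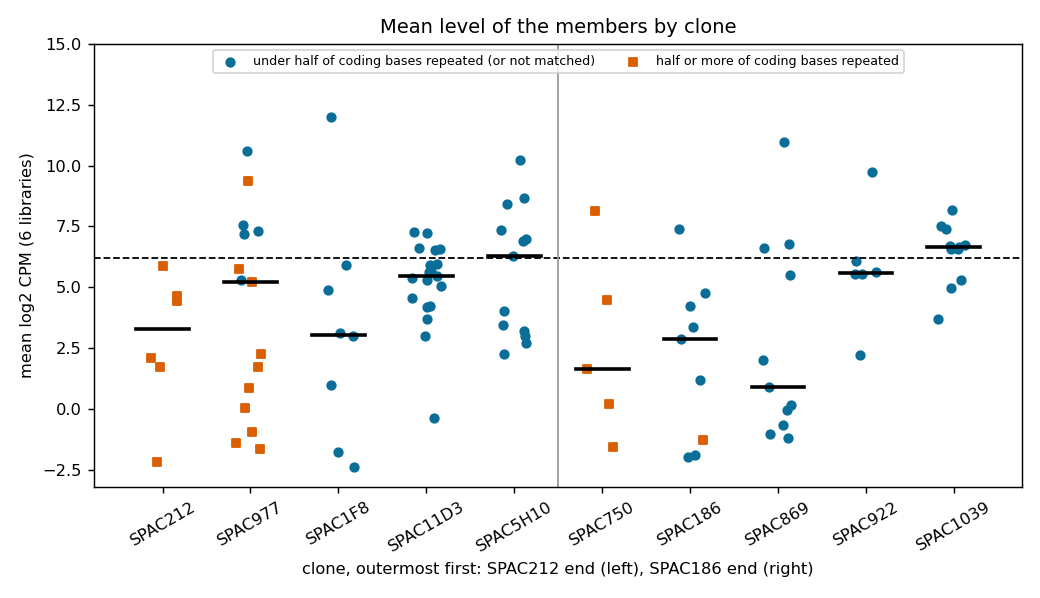
Mean level (log2 CPM, authors' mean of 6 libraries) of the 103 members by clone, ordered from the chromosome end inward at the SPAC212 end (left of the grey line) and the SPAC186 end (right). Points are genes, squares have at least 50% of their coding bases repeated elsewhere, black bars are clone medians and the dashed line is the median of the other protein-coding genes (6.20). Medians run from 0.88 in SPAC869 to 6.63 in SPAC1039, and the squares gather in SPAC212, SPAC977 and SPAC750.

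Low genes stood side by side. Among genes that follow each other in the annotation and have a value, 8 runs of at least 2 genes under 2 log2 CPM touched the members, and they held 22 of the 25 members under that limit. A gene without a value ended a run. The other protein-coding genes of the table had 14 such runs with 28 of their 180 low genes. Low genes were 24.3% of the members and 3.63% of the other genes, and a higher share alone gives more low neighbours. The counts of runs cannot be told apart from that share. Runs at the ends of chromosome II were not counted separately. Among genes with a value, runs of 3 or more numbered 3 at these ends and 0 elsewhere. The longest held 5 genes, from SPAC977.03 to pfl6, and included a methyltransferase gene, a truncated membrane transporter gene (SPAC977.04, 1.72 log2 CPM), a gene of a conserved fungal family (SPAC977.05c, -0.96), the DUF999 gene SPAC977.06 (0.05) and pfl6. Repeated stretches made up from 95% to 100% of the coding bases of these 5 genes. The best matches of SPAC977.03, SPAC977.05c, SPAC977.06 and pfl6 lay on chromosome II, each with at least 98.3% protein identity. Of these matches only SPBC1348.07, that of SPAC977.06, had a value (-1.02 log2 CPM). A low run there could thus not be counted. A run of 4 genes in SPAC869 had no repeated base. It held SPAC869.09, a conserved fungal protein (0.88 log2 CPM), pcm2, a methyltransferase that repairs damaged aspartate residues in proteins (-0.05), mel1, the melibiase that releases galactose from melibiose (-1.05), and hry1, an HHE domain cation-binding protein (-0.69). The third run of 4 had 3 members, ght3, a hexose transporter (0.97 log2 CPM), shu1 and str3, beside the non-member SPAPJ695.01c (-0.59).

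High genes interrupted these stretches. Between neighbouring members the median absolute difference in level was 2.61 log2 per kb over 93 pairs, against 1.79 over 4875 pairs of other neighbouring genes. It was above 4 in 30.1% of the pairs of members and in 17.0% of the others. The members were also more spread as a whole, with quartiles of 2.57 and 6.44 log2 CPM per kb against 4.87 and 7.25. The wider steps between neighbours cannot be told apart from that spread. The widest step was between yhb1 at 10.62 log2 CPM per kb and its inner neighbour, the urea transporter SPAC869.03c, at -0.82, a ratio of 2779. On its other side, the amidase SPAC869.01 had 1.19 log2 CPM per kb. Similar steps lay between ftm1 (SPAC977.01, 2.33 log2 CPM per kb) and SPAC977.18 (10.70), and between the adhesin gene pfl8 (2.89) and pdc101 (11.21).

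Duplicated sequence was common among the members. A coding base was counted as repeated when a stretch of 50 bases that covered it occurred elsewhere in the ASM294v3 genome. By this measure 22 of 102 members (21.6%) had at least 50% of their coding bases repeated, and 68 of the other genes (1.38%) did. Among the 103 genes at the ends of chromosome II there were 15 (14.6%). At the SPAC212 end they were the 6 members of SPAC212 and 10 members of SPAC977, and at the SPAC186 end the 5 members of SPAC750 and SPAC186.03. These 22 had a median of 1.73 log2 CPM with 12 under 2, and the 78 members with no repeated base had a median of 5.48 with 11 under 2. The level of repeated genes is uncertain, since reads that match several copies cannot be assigned to 1 of them, and how such reads were counted is not given in the sources used here. Leaving out genes with 50% or more of their coding bases repeated changed the difference between the median of the members and that of the other genes from -1.24 to -0.74 log2. The share of members under 2 log2 CPM was then 16.0%, against 3.36% of 4888 other genes. The part of duplicated sequence in the low levels was not tested. Over 102 members, level and repeated share had a Spearman coefficient of -0.33.

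The annotation holds 114 genes on these clones, of which 12 had no value in the table, 5 of them pseudogenes. The study left out genes with few reads, and whether this removed these 12 was not tested. The 7 protein-coding genes among the 12 were tlh1, the telomere-linked helicase at the outermost position of the SPAC212 end, SPAC212.01c, ayr2, plb4, SPAC750.02c, SPAC750.07c and SPAC750.08c, and each had at least 50% of its coding bases repeated. The outermost 2 or 3 genes of each end are therefore not part of the values above. In gene structure the members differed from the rest of the genome in introns, which 12 members had (11.8%) against 47.9% of the other genes and 28.2% of the 103 genes at the ends of chromosome II. Their median coding length was 999 bases against 1146, and their median GC content was 39.9% against 39.6%.

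The DUF999, 5Tm and telomeric helicase families had 8 members, all on the clones SPAC212, SPAC977 and SPAC750. The 3 DUF999 genes, whose function is not described, were SPAC212.04c at 4.65 log2 CPM, SPAC750.06c at 1.65 and SPAC977.06 at 0.05. The 5Tm genes encode small membrane proteins specific to fission yeast. Of these, ftm2 (SPAC977.02) had 5.19 log2 CPM, ftm4 (SPAC750.05c) 4.48, ftm1 2.26 and ftm3 (SPAC750.04c) 0.18. The truncated helicase SPAC212.06c had 2.08 log2 CPM. Each of these 8 genes had at least 50% of its coding bases repeated, and none reached the median of the other genes in log2 CPM. Per kb of coding length, ftm2 alone lay above that median, with 6.37 against 5.94 log2 CPM per kb.

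Cell surface genes were low to middling. The related GPI-anchored proteins SPAC212.08c and SPAC212.12 had 5.86 and 4.44 log2 CPM, the adhesin genes pfl9, pfl8 and pfl6, which encode proteins of cell adhesion and flocculation, had 3.36, 3.10 and -1.66, and shu1 had -1.77. The median over the 6 was 3.23 log2 CPM.

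Membrane transporters, channels and permeases were the largest named family, with 20 members and a median of 5.53 log2 CPM. The 10 at the SPAC186 end had a median of 6.08 with 1 under 2 log2 CPM, and the 10 at the SPAC212 end had a median of 4.53 with 4 under 2. Amino acid uptake was the best represented function and its genes were all above 6 log2 CPM. They were isp5 (7.38 log2 CPM), SPAC11D3.08c (7.23), put4, a proline permease (6.78), SPAC1039.01 (6.73) and cat1, a transporter of cationic amino acids (6.60). Ion and water transport gave gdt1 at 7.37 log2 CPM, the predicted water channel SPAC977.17 at 7.31, the sodium/proton antiporter gene nhe1, which exports sodium, at 7.18, the sulfate transporter gene sul2 at 5.49 and the truncated channel gene SPAC186.04c at 4.24. The drug or solute carriers mfs2, SPAC922.05c and SPAC11D3.06 had 5.93, 5.56 and 5.37 log2 CPM. Of the 2 predicted carboxylic acid transporters, SPAC1039.04 had 5.29 log2 CPM and SPAC11D3.18c had 3.70. The 5 transporters under 2 log2 CPM were SPAC977.04, ght3, the fluoride channel gene fex1 (0.85), SPAC869.03c (0.17) and str3. Of these, SPAC977.04 and fex1 were at least 99% repeated (100% and 99.4%).

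Dehydrogenases, reductases and oxidases numbered 12, with a median of 6.26 log2 CPM, and they held the widest range of any family. The 5 at the SPAC212 end all lay above 4 log2 CPM, namely SPAC977.14c, adh4, the NADPH dehydrogenase SPAC5H10.10 (7.0), the FAD-binding oxidoreductase SPAC5H10.05c (6.91) and the NADPH dehydrogenase SPAC5H10.04 (4.02). At the SPAC186 end, yhb1 and SPAC750.01 were above 8 log2 CPM, the aldehyde dehydrogenase gene atd2 (5.61) and the acyl-carrier-protein reductase SPAC922.06 (5.55) were in the middle, and the hydroxyacid dehydrogenases SPAC186.07c (1.18) and SPAC186.02c and the lactate dehydrogenase SPAC186.08c were under 2. Alongside pdc101, the decarboxylase and aminotransferase group held the aminotransferase SPAC1039.07c at 7.51 log2 CPM and pdc102 at 2.88.

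The 7 esterases, lipases, amidases and hydrolases had a median of 3.01 log2 CPM. They were the esterase SPAC1039.03 (6.63 log2 CPM), the L-asparaginase SPAC977.12 (5.76), the dienelactone hydrolase SPAC977.15 (5.29), hhy1 (3.01), SPAC869.01 (2.0), SPAC869.04 and SPAC186.03. Of the glycoside hydrolases, the alpha-glucosidase gene gto1 had 6.57 log2 CPM and mel1 had -1.05. The 4 transcription factor genes, all with the zinc cluster domain found in fungi, formed the narrowest family. They were klf1 (6.70 log2 CPM), toe4 (6.56), SPAC11D3.11c (5.66) and SPAC11D3.17 (5.29). The 13 proteins of no named function had a median of 4.24 log2 CPM but 6.23 log2 CPM per kb, since their median coding length was 390 bases. They ranged from SPAC212.03 at -0.83 log2 CPM per kb to SPAC922.04 at 11.24, with the spore protein gene isp3 at 6.78.

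The 26 members in no such family had a median of 5.22 log2 CPM. Among those of central and cofactor metabolism, dak2, a dihydroxyacetone kinase that takes part in glycerol use, had 7.55 log2 CPM. The pantothenate pathway is represented by both pan6, which joins pantoate to beta-alanine, at 7.34 log2 CPM and ecm31, which acts before it, at 2.98. These neighbours on the same clone differed by more than 4 log2 per kb (7.57 and 3.30 log2 CPM per kb). The DJ-1 family genes hsp3104 and hsp3102 had 5.47 and 3.18 log2 CPM.

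**Figure D3:**
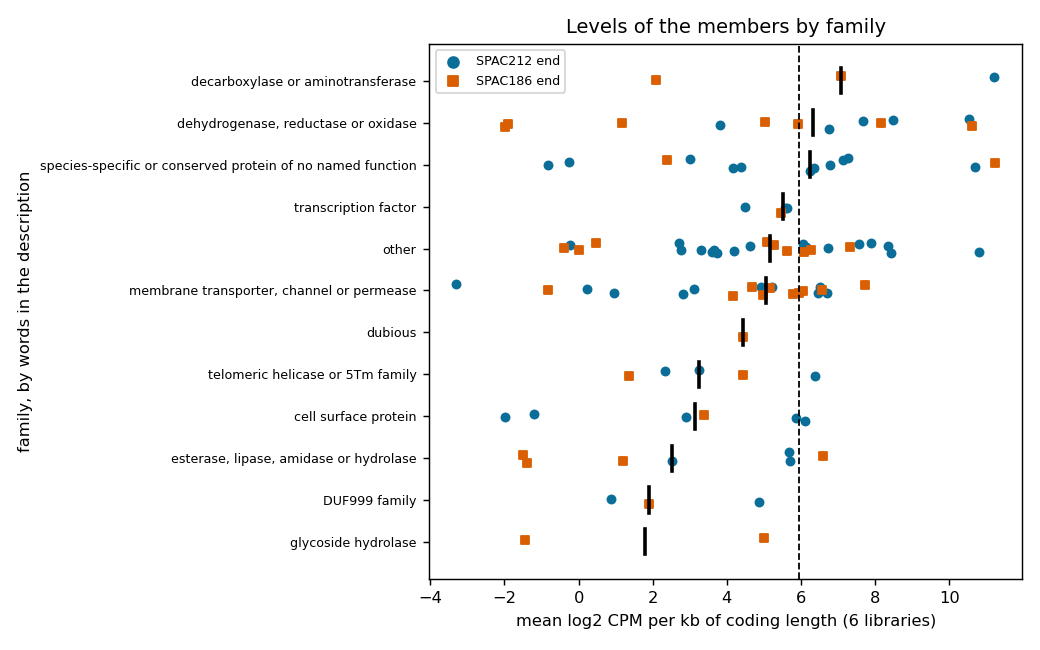
Mean level per kb of coding length (log2 CPM per kb, authors' mean of 6 libraries) of the 102 members with a coding length, by family named from words in the description. Circles are genes at the SPAC212 end, squares genes at the SPAC186 end, bars are family medians and the dashed line is the median of the other protein-coding genes (5.94). The transcription factors are the narrowest group with more than 1 point, from 4.48 to 5.62. The dehydrogenases, the transporters, the proteins of no named function and the members in no named family span most of the axis.

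Relatives among the members were compared directly, as pairs whose proteins were at least 50% identical over an alignment of at least 80% of the length of the shorter protein. SPAC212.12 and SPAC186.04c are much shorter than their partners. There were 16 such pairs, 8 of them between the ends. The widest gap was between the pyruvate decarboxylase genes, with 11.21 log2 CPM per kb for pdc101 at the SPAC212 end and 2.10 for pdc102 at the SPAC186 end, a ratio of 551 at 58.1% protein identity. The L-asparaginase genes SPAC977.12 (5.66 log2 CPM per kb) and SPAC186.03 (-1.39) differed by a ratio of 133 at 70.2% identity. The galactosyltransferase genes gmh2 (8.36 log2 CPM per kb) and gmh1 (2.70), which add galactose to glycans and lie on the same clone, differed by a ratio of 50.4. The adhesin genes pfl8 (2.89 log2 CPM per kb) and pfl6 (-1.99) differed by a ratio of 29.3. In the pairs pdc101 with pdc102 and gmh2 with gmh1 none of the coding bases was repeated. In contrast, 86.5% of the coding bases of SPAC977.12, 78.0% of those of SPAC186.03 and 99.9% of those of pfl6 were repeated. The ratios of the L-asparaginase and adhesin pairs are therefore uncertain.

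The pair with identical proteins also differed. The gene ftm2 had 6.37 log2 CPM per kb and ftm3 had 1.36, a ratio of 32.4, although 100% of the coding bases of both were repeated. Because reads of such copies cannot be told apart within the coding sequence, this difference is uncertain. The methyltransferase genes SPAC977.03 (-0.23 log2 CPM per kb) and SPAC750.03c (-0.40), 98.6% identical, were both near the lowest values, and the GPI-anchored pair SPAC212.08c (6.12) and SPAC212.12 (5.86) differed by a ratio of 1.19. The aldo/keto reductase genes SPAC977.14c (10.53 log2 CPM per kb) and SPAC750.01 (8.15), 94.5% identical, were both high and differed by a ratio of 5.21.

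In 7 of the 8 pairs between the ends the gene at the SPAC212 end had the higher level per kb. The exception was the DUF999 pair SPAC750.06c (1.89 log2 CPM per kb) and SPAC977.06 (0.86). The remaining pair of this family across the ends, SPAC212.04c (4.86) and SPAC750.06c, had a ratio of 7.81. The channel genes SPAC977.17 (6.46 log2 CPM per kb) and SPAC186.04c (5.16) differed by a ratio of 2.47. The pairs share genes, and 6 of the 8 have at least 46% of the coding bases of both partners repeated, so the count is no measure of the ends.

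Within an end, the DUF999 genes SPAC212.04c and SPAC977.06 differed by a ratio of 16.0, the hydroxyacid dehydrogenases SPAC186.07c (1.18 log2 CPM per kb) and SPAC186.02c (-1.98) by 8.91, and the NADPH dehydrogenases SPAC5H10.10 (6.76) and SPAC5H10.04 (3.82) by 7.67. The neighbouring 5-oxoprolinase genes SPAC11D3.15 (4.63 log2 CPM per kb) and SPAC11D3.14c (3.72) differed by a ratio of 1.88, and the permease genes isp5 (6.58) and cat1 (5.78) by 1.73.

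**Figure D4:**
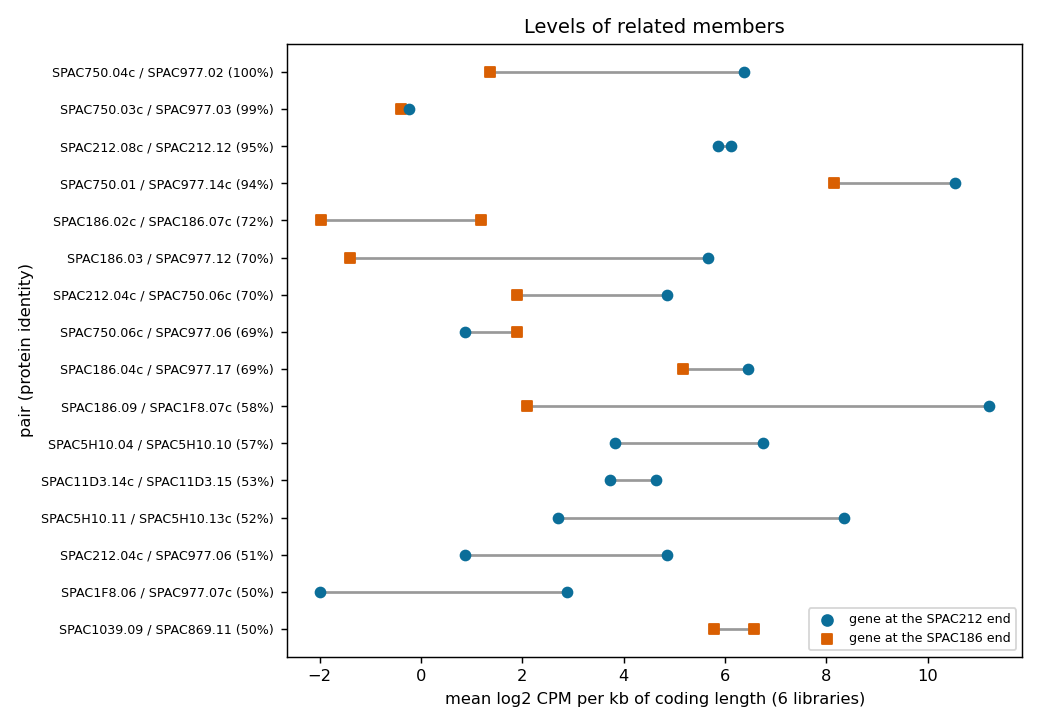
Mean level per kb of coding length (log2 CPM per kb, authors' mean of 6 libraries) of both genes of the 16 pairs of members whose proteins are at least 50% identical, with the identity in brackets and the pairs ordered by it. Circles are genes at the SPAC212 end, squares genes at the SPAC186 end, and the grey line joins the partners. The longest line belongs to pdc102 and pdc101 (SPAC186.09 and SPAC1F8.07c), and lines of very different length occur at every identity.

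Over the whole genome, 18 members had another protein at least 90% identical to theirs. The best match lay on chromosome II for 11 of them and on these same clones of chromosome I for 7, which include pairs described above. For 8 of the 18 the best match had a level in the table, and for 10 it had none. Of the 18, 12 were under 2 log2 CPM. They include pfl6, fex1, SPAC977.03, SPAC977.04, SPAC977.05c and SPAC977.06, and so all 5 genes of the unbroken low stretch of clone SPAC977.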

How the data were processed

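Per the labels, the authors used cutadapt 1.8.3 for trimming, STAR 2.5 for alignment to ASM294v2, HTSeq 0.6.1 for counting and edgeR 3.12.0 for the comparison of the strains, and per the methods genes with few reads were left out. Whether counting used strand is not given in the sources used here. The deposited table holds the authors' mean log2 CPM over 6 libraries, which was used, and 3 columns of their comparison (fold change, p-value, adjusted p-value), which were not. No counts per library were analysed, so depth is unknown and the planned count test was not run. The authors' mean log2 CPM, as edgeR computes it, includes a small added count, which raises the lowest values.

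Members and lists were chosen with earlier results of these data known. Gene order, coding length, introns and repeated bases came from RefSeq's ASM294v3, in which 5046 of 5059 protein-coding identifiers were matched. Protein pairs were found with blastp 2.17.0 on proteins translated from that annotation. Repeated bases were those in stretches of 50 bases found elsewhere on either strand. The named genes were each family's members, each clone's highest and lowest, the 10 highest and 10 lowest, the outermost at each end and pairs at 50% identity, to which genes of the runs and of pathways named were added after their values were seen. Work was done in Python 3.11.15 with pandas 2.3.3, and the summaries were tested on simulated data. Sequences are not printed, because the genome used by the authors was not used here.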

Additional observations from a re-analysis of the deposited data

How the results depend on the processing

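No paired analysis was possible because values per library were not analysed here. For the same reason DESeq2 size factors, no count filter, each library left out and the replicate block were not run. Values without a test were taken as moved at 0.5 log2, 0.1 of a coefficient or the 95% interval of a share. The median of the members minus that of other genes was -1.24, stayed between -1.68 and -0.92 with each clone left out, and was -0.74 without genes with 50% or more repeated coding bases, an alternative added after the data were seen. The difference between the ends, -0.17, lay between -2.15 and 0.63 with each clone left out (0.63 without SPAC11D3, 0.51 without SPAC186, 0.25 without SPAC750 or SPAC869, -0.68 without SPAC922, -2.15 without SPAC1039). It was 0.23 over genes above 0 log2 CPM and 0.021 without members with a close copy. The share of members under the limit was 14.6% at 0, 39.8% at 4 and 16.0% without repeated genes. Without repeated genes the coefficient at the SPAC212 end was 0.021. The other alternatives moved these values by less than the limits above. With stretches of 100 bases, also added later, 21 members in place of 22 were at least 50% repeated.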

Other observations

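Non-coding RNAs at the same ends were not members. Between the outermost and innermost members, 18 ncRNAs at the SPAC212 end had a median of 3.30 log2 CPM with 5 under 2, and 18 at the SPAC186 end had 0.92 with 12 under 2, against 2.15 log2 CPM and 47.4% under 2 over all 1286 ncRNAs. GC content and level had a Spearman coefficient of 0.33 over 102 members and 0.49 over 4944 other genes, as a description across genes of the same libraries. The 68 other genes with 50% or more of their coding bases repeated had a median of 4.14 log2 CPM with 23.5% under 2, against 1.73 log2 CPM for such members. The 12 members with an intron had a median of 5.16 log2 CPM and the 90 without had 5.0.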
